A study of Mus musculus with 15 samples.

Results

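The zona pellucida genes described here are Zp1, Zp2, Zp3 and Zp4-ps, chosen by symbol, and they are 4 of the 55401 Ensembl gene identifiers counted in each library. All 4 passed the filter on low counts that left 21009 genes for the tests. The counts come from 15 libraries of oocytes of Kunming mice, each made from 6 oocytes by SMART-Seq2, a full-length amplification primed from poly(A) tails. The oocytes were at the germinal vesicle (GV) stage, and follicles for culture came from mice aged 12 to 14 days. The same age is recorded for the IVV libraries, although the study's methods state it only for the cultured follicles. Age and culture cannot be told apart in the comparisons with IVV. There were 5 groups of 3 libraries. IVV oocytes grew in vivo and were taken from antral follicles. IVG oocytes came from preantral follicles cultured to day 10, and IVG-NT oocytes from follicles cultured to day 10 with neurotrophin-4 (NT-4). IVG day 6 and IVG-NT day 6 oocytes came from the same cultures stopped at day 6, without and with NT-4. No group carried a genetic change. Each library pooled oocytes, so differences between single oocytes cannot be seen. In pooled oocytes, fewer transcript-bearing cells and less RNA per cell cannot be told apart.

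The zona pellucida is the extracellular coat of the mammalian oocyte, laid down during oocyte growth, and it binds sperm, blocks further sperm after fertilisation and protects the early embryo. In the mouse it is a meshwork of filaments built from ZP2 and ZP3 and cross-linked by ZP1. The 3 proteins are glycoproteins made by the growing oocyte, released from the cell surface after cleavage by furin-type proteases. FIGLA, a basic helix-loop-helix factor, is known to bind an E-box upstream of the zona genes together with an E protein. The mouse counterpart of ZP4 is a pseudogene, which is why the annotation lists it as Zp4-ps.

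In GRCm38 (GENCODE vM21), Zp1 (ENSMUSG00000024734) lies on the minus strand of chromosome 19 from 10914287 to 10920632, with 12 exons and 1981 exon bases. Zp2 (ENSMUSG00000030911) lies on the minus strand of chromosome 7 from 120126772 to 120145291, with 18 exons and 2724 exon bases. Zp3 (ENSMUSG00000004948) lies on the plus strand of chromosome 5 from 135980099 to 135988624, with 8 exons and 1323 exon bases. The pseudogene Zp4-ps (ENSMUSG00000113593) lies on the plus strand of chromosome 13 from 11522052 to 11528852, with 13 exons and 1630 exon bases. It is annotated as a transcribed unprocessed pseudogene, and 44 of its exon bases overlap Gm47487 on the opposite strand, where reads of the 2 genes cannot be told apart without strand. Zp1, Zp2 and Zp3 therefore differ in length as well as in role, with Zp3 the shortest and Zp2 the longest.

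The promoter of Zp3 is shown because E-boxes of this kind are the known entry point of FIGLA, and Figla is described with the other regulators after the members. Among the members, Zp3 was matched in the RefSeq promoter table (GRCm38.p6). The 250 bases before its RefSeq start, chr5:135979855-135980104 on the plus strand, are printed 5′ to 3′ with E-boxes (CANNTG) and TATA runs in capitals.

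Zp3 upstream: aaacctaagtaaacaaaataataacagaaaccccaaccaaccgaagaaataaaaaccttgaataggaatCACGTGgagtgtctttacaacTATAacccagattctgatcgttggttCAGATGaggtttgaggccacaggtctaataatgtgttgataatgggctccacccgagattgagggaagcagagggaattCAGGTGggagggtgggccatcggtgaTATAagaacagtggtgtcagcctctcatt

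The 3 E-boxes end 176, 129 and 50 bases before the start, and each reads as an E-box on both strands, as any CANNTG match does. The last TATA begins 29 bases before the start and the other begins 160 bases before it. Both motifs are common in windows of this length. Of 32851 RefSeq windows, 66.2% held at least 1 E-box and 12.2% held 3 or more. A TATA run on either strand was held by 34.0%, and 2 or more by 13.5%. These matches are letters in a window and no binding was measured.

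The libraries fell into 2 kinds by their share of ribosomal RNA (rRNA) counts. In 9 libraries the annotated ribosomal RNA gene CT010467.1 took between 12.51% and 37.93% of the counts, and these are called rRNA-rich. In the other 6 it took between 0.1869% and 0.7143%, and these are called rRNA-poor. The dividing line was set at 5% and gave the same split at 1%. Replicates 1 and 2 of each cultured group were rRNA-rich and replicate 3 was rRNA-poor, whereas replicate 3 of IVV was rRNA-rich and its replicates 2 and 4 were rRNA-poor. Each library held 5954262 to 55593251 counts, with the fewest in IVG-NT day 6 replicates 1 and 2 (5954262 and 7125348 counts), both rRNA-rich. All 10 oocyte markers looked up were detected in all 15 libraries, with a summed level of 8250 to 16490 normalised CPM. CPM are counts scaled to a common library total, and the normalisation is given below with the members. The 12 granulosa cell markers summed to 48.56 to 306.3 normalised CPM. Nr5a2 and Kitl were detected in all 15 libraries, Inha (median 33.05 normalised CPM) was at 0 in 1 library, and Amh was at 0 in 13. The summed markers of theca and stroma reached 36.28 normalised CPM and those of macrophages 53.13.

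Zp3, which encodes the filament subunit that ZP2 pairs with, had the highest level per length of the members in the rRNA-poor libraries, as given further on. Levels are given as normalised CPM, which is CPM after scaling by the trimmed mean of M values (TMM). Zp3 had 3762, 718.1 and 3097 normalised CPM in IVV replicates 2, 3 and 4. It had 733.1, 796 and 2963 in IVG replicates 1, 2 and 3, and 611.9, 445.7 and 3205 in IVG-NT. The low values in each of these groups belong to the rRNA-rich libraries and the high values to the rRNA-poor ones. At day 6 Zp3 had 1168, 1229 and 4317 normalised CPM in IVG and 1084, 950.6 and 3895 in IVG-NT. The third replicate was again the rRNA-poor one. Over all groups the 6 rRNA-poor libraries spanned 2963 to 4317 and the 9 rRNA-rich libraries 445.7 to 1229, without overlap.

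Zp2, the subunit whose cleavage after fertilisation ends sperm binding, went the other way. It had 1063, 1564 and 1007 normalised CPM in IVV replicates 2, 3 and 4, with the highest value in the rRNA-rich library. It had 1606, 1364 and 926.6 in IVG and 1873, 1185 and 646.8 in IVG-NT. At day 6 it had 3964, 4227 and 1364 in IVG and 3202, 2160 and 937.2 in IVG-NT. The 4 rRNA-rich libraries of day 6 are the 4 highest of all 15, between 2160 and 4227, and the rRNA-poor libraries of day 6 lie within the range of the other groups.

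Zp1, the cross-linker of the filaments, varied least. IVV replicates 2, 3 and 4 had 789.8, 1001 and 712.1 normalised CPM. IVG replicates had 1049, 961.7 and 657.5, and IVG-NT replicates 1060, 1019 and 516.6. At day 6 it had 962.7, 1065 and 785.3 in IVG and 615.6, 464.1 and 1076 in IVG-NT. In 4 groups the rRNA-rich libraries lay above the rRNA-poor ones, and in IVG-NT day 6, where the rRNA-rich libraries are the shallow ones, they lay below.

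The pseudogene Zp4-ps was transcribed at a low level. IVV replicates 2, 3 and 4 had 37.07, 4.123 and 37.99 normalised CPM. IVG replicates had 4.071, 2.835 and 24.05, and IVG-NT replicates 3.739, 4.433 and 33.57. At day 6 it had 3.6, 1.853 and 27.19 in IVG and 9.396, 0 and 20.64 in IVG-NT. The 0 is a count of 0 in the library of 7125348 counts, which allows a level of up to 0.499 normalised CPM by counting error alone. Every rRNA-poor library (20.64 to 37.99) was above every rRNA-rich one (0 to 9.396).

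**Figure D1:**
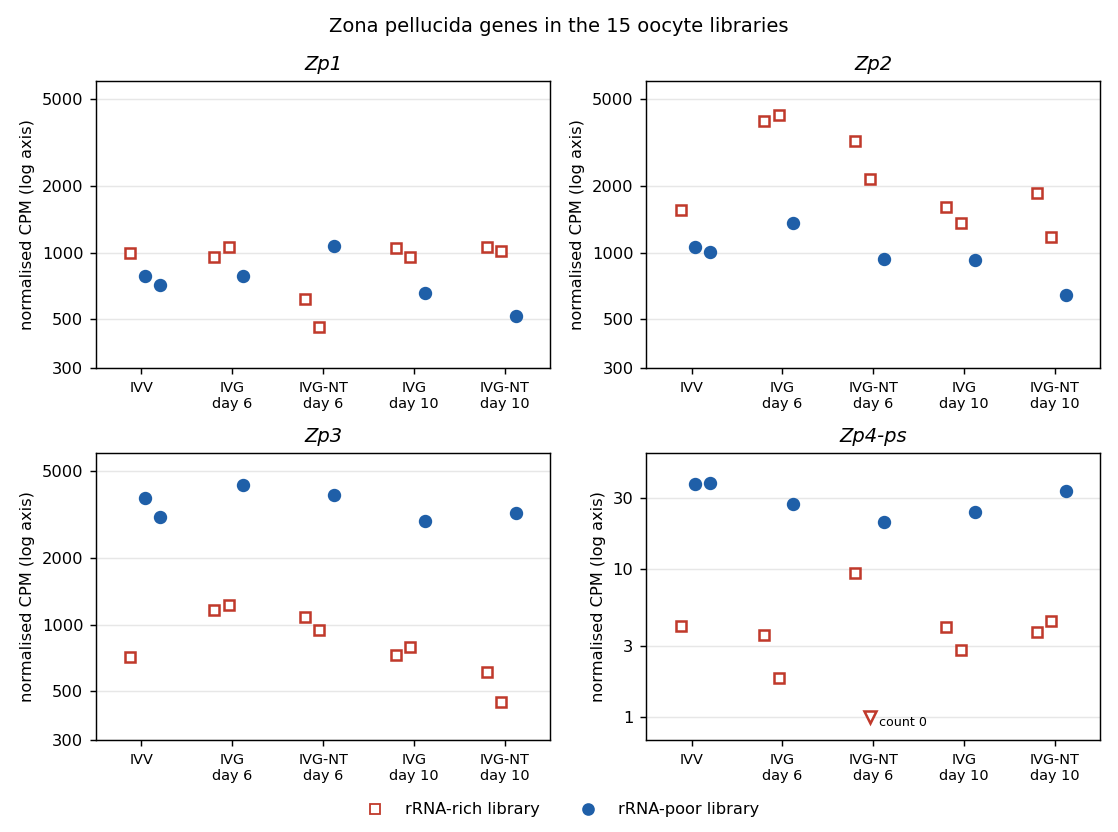
Normalised CPM (log axis) of Zp1, Zp2, Zp3 and Zp4-ps in each of the 15 libraries, by group, with open squares for rRNA-rich and filled circles for rRNA-poor libraries and a triangle for the count of 0. The 6 rRNA-poor libraries sit between 2963 and 4317 for Zp3, above all rRNA-rich libraries, and the 4 highest values of Zp2 are the rRNA-rich libraries of day 6.

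Levels of different genes were compared per exon length, as normalised CPM per 1000 exon bases (FPKM). The exon bases are those of all annotated transcripts of a gene joined. For Zp2 these are 2724, while its longest coding transcript has 2233, against 1981 and 1963 for Zp1 and 1323 in both cases for Zp3. A shorter length would raise the FPKM of Zp2, so its order against Zp1 depends on the length used. In the rRNA-poor libraries Zp3 had 2676 ± 402.8 FPKM (SD, n = 6), Zp1 had 381.8 ± 94.07 and Zp2 had 363.7 ± 85.29. Zp3 ranked 7 to 10 among the protein-coding genes of those libraries. The levels of Zp1 and Zp2 overlapped there. In the rRNA-rich libraries the order was Zp2 with 862.6 ± 423 FPKM (SD, n = 9), Zp3 with 649.7 ± 200.5 and Zp1 with 459.8 ± 109.6, and the neighbours in this order overlapped. Zp4-ps had 18.46 ± 4.404 FPKM in the rRNA-poor and 2.321 ± 1.551 in the rRNA-rich libraries. The order of the 5 groups by mean level was not the same for any pair of the 3 coding genes, and neighbouring groups overlapped for each of them.

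The difference between the kinds of library was tested for all genes with the group as a covariate, so that it was taken within the 5 groups. Zp3 was 4.37-fold lower in the rRNA-rich libraries (log2 fold change −2.13, SE 0.15, edgeR adjusted p = 1.14e-06). Zp4-ps was 7.53-fold lower (−2.91, SE 0.75, edgeR adjusted p = 0.0135). Zp2 was 2.17-fold higher (1.12, SE 0.20, edgeR adjusted p = 0.00146), although its rRNA-rich and rRNA-poor levels overlapped across groups. Zp1 differed by 0.24 (SE 0.24, edgeR adjusted p = 0.508) and was not called. A call here is a log2 fold change beyond 1 with an unadjusted p under 0.05, and it took in 3 of the 4 members against 35.1% of all genes. With DESeq2 size factors, which moved the median of all genes by −0.17, Zp2 stood at 0.95, short of the fold limit, and the other directions were kept. At an adjusted p under 0.05 the same 3 members passed, against 23.7% of all genes. Differences of this kind were therefore common among all genes. The median gene was lower by 0.54 (log2 fold change −0.54), and relative to it the members stood at −1.59 (Zp3), −2.37 (Zp4-ps), 1.66 (Zp2) and 0.78 (Zp1).

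The direction was the same within the groups for 3 of the members. Differences here are in log2 units after 2 normalised CPM was added to each value. Zp3 was lower in the rRNA-rich libraries of all 5 groups, with differences from −1.85 in IVG day 6 to −2.62 in IVG-NT. Zp4-ps was also lower in all 5, from −2.25 to −2.69. The added 2 shrinks these differences, since its rRNA-rich libraries held 0 to 9.396 normalised CPM. The value of IVG-NT day 6 includes the count of 0. Zp2 was higher in all 5, by 0.59 in IVV, by 0.68 and 1.20 in the day 10 groups without and with NT-4, and by 1.58 and 1.49 in those of day 6. Zp1 was higher in 4 groups, by 0.37 to 1.004, and lower in IVG-NT day 6 (−1.002). Without both rRNA-rich libraries of IVG-NT day 6 the Zp1 difference was 0.52 (edgeR adjusted p = 0.0171). That setting was added once the values were known. The edgeR adjusted p of Zp4-ps was above 0.05 when 1 of 3 rRNA-poor libraries was left out, namely replicate 3 of IVG (0.0563), IVG-NT (0.0684) or IVG day 6 (0.0666). Between the kinds of library 4798 of all 21009 genes were called lower and 2578 higher. Of 7 theca and stroma markers tested 4 were called lower in the rRNA-rich libraries. At an adjusted p under 0.05 by edgeR 2 of the 7 passed. The 4 called had medians of 0 to 0.1814 normalised CPM over the 15 libraries, near the floor. The marker sums overlapped, with 0 to 21.59 normalised CPM in the rRNA-rich and 1.795 to 36.28 in the rRNA-poor libraries. Of 4 macrophage markers 2 were called lower, and of 11 granulosa markers 1 was called higher. The part of these cells in the zona differences was not tested.

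Ratios between 2 zona genes in 1 library do not depend on how libraries are scaled. The FPKM ratio of Zp2 to Zp3 was 0.098 to 0.158 in the 6 rRNA-poor libraries and 0.832 to 1.67 in the 9 rRNA-rich ones. It was above 1 in 8 of those 9, a count that depends on the exon length taken for Zp2. Within groups the ratio was 9.40-fold higher in the rRNA-rich libraries (two-sided exact permutation of the kind within each group, p = 0.00412, the smallest the 243 assignments allow, and 0.0432 after adjustment over 21 comparisons). The ratio of Zp1 to Zp3 was 0.108 to 0.185 in the rRNA-poor and 0.326 to 1.53 in the rRNA-rich libraries, a 5.28-fold difference (exact permutation p = 0.00412, adjusted p = 0.0432). The ratio of Zp1 to Zp2 was 1.78-fold lower in the rRNA-rich libraries (exact permutation p = 0.0123, adjusted p = 0.0864). This last ratio was 0.264 to 0.346 in the 4 rRNA-rich libraries of day 6 and 0.778 to 1.18 in the other 5 rRNA-rich libraries, without overlap. In the rRNA-poor libraries it was 0.792 and 1.58 at day 6 and 0.973 to 1.10 in the other 4, with overlap.

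**Figure D2:**
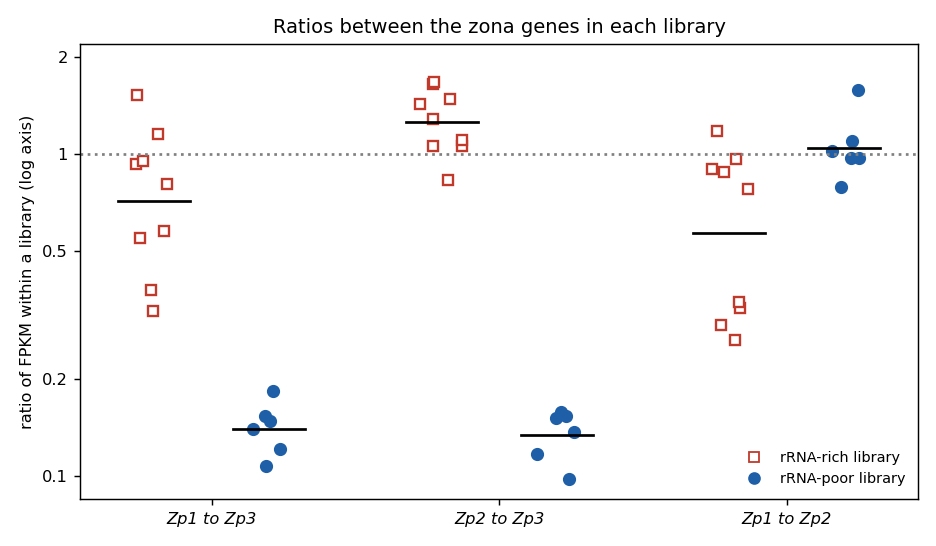
Ratio of FPKM of 2 zona genes within each library (log axis), with open squares for the 9 rRNA-rich libraries, filled circles for the 6 rRNA-poor libraries and bars for the geometric mean. The Zp2 to Zp3 ratio is 0.098 to 0.158 in rRNA-poor and 0.832 to 1.67 in rRNA-rich libraries, so the 2 kinds do not overlap.

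The difference between the kinds of library varied with exon length over all genes. This was looked at after the values of the members had been seen. Among 3239 tested genes with up to 1000 exon bases the median log2 fold change of rRNA-rich against rRNA-poor libraries was −2.50. It was −1.74 among 3229 genes of 1000 to 2000 bases, −0.95 among 3189 genes of 2000 to 3000, −0.44 among 2652 genes of 3000 to 4000, and 0.43 among 8668 longer genes. Across 20977 genes Spearman's rho between exon length and this log2 fold change was 0.47, given as a description, since all genes share the 15 libraries. Zp3 (1323 bases, −2.13) and Zp4-ps (1630 bases, −2.91) lay below the median of their length class. Zp1 (1981 bases, 0.24) and Zp2 (2724 bases, 1.12) lay above theirs. The part of length in the zona differences was not tested.

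**Figure D3:**
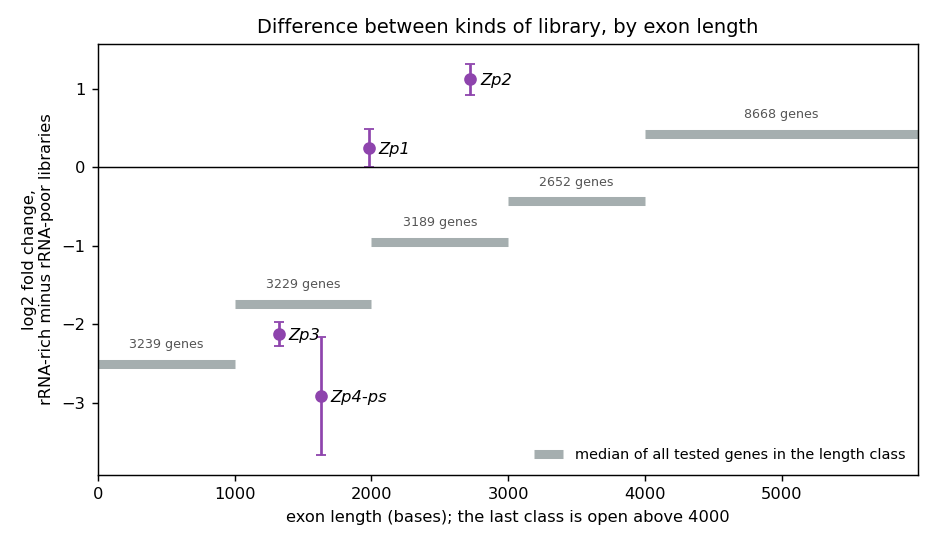
Log2 fold change between rRNA-rich and rRNA-poor libraries against exon length in bases, with grey bars for the median of all tested genes in each length class and points with SE for the 4 zona genes. The class medians rise from −2.50 to 0.43, Zp3 and Zp4-ps lie below the 1000 to 2000 base median of −1.74, and Zp2 lies above the 2000 to 3000 base median of −0.95.

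Whether oocytes grown in culture differ from oocytes grown in vivo was asked by comparing the day 10 groups with IVV. Zp1 averaged 834.3 ± 149.5 normalised CPM in oocytes grown in vivo (SD, n = 3 each here and next), 889.4 ± 205.5 in IVG and 865.2 ± 302.6 in IVG-NT oocytes. Zp2 averaged 1211 ± 306.7, 1299 ± 344.4 and 1235 ± 614.6 in the same order. Zp3 averaged 2526 ± 1600, 1497 ± 1270 and 1421 ± 1547. Of the 3 IVV libraries 2 were rRNA-poor, against 1 of 3 in each cultured group. Values of Zp3 and Zp4-ps adjusted for the kind of library are therefore given beside those of the group means. Zp3 in IVG against IVV had a log2 fold change of −0.75 (SE 0.89, edgeR adjusted p = 1), and in a fit adjusted for the kind of library, which takes it as a covariate, it was −0.05 (SE 0.24). For IVG-NT against IVV it was −0.83 (SE 0.90, edgeR adjusted p = 1) and −0.35 (SE 0.23) when adjusted for kind. Zp4-ps stood at −1.36 (SE 1.59) and −0.92 (SE 1.57) in the 2 comparisons, and at −0.48 (SE 1.1) and −0.16 (SE 1.1) when adjusted for kind. The groups overlapped for every member. With DESeq2 size factors, which moved the median of all genes by −0.19 and −0.17, Zp1 stood at −0.12 and −0.19 and Zp2 at −0.11 and −0.21, where TMM had given values above 0.

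None of the 4 members was called in either comparison with IVV, where 2.76% (IVG) and 3.29% (IVG-NT) of all genes were called. Neither edgeR nor the DESeq2 Wald test gave a member an unadjusted p under 0.05 in them. No gene of the 21009 passed an adjusted p of 0.05 in any comparison between groups by edgeR, where 261 to 2661 genes had an unadjusted p under 0.05, and the DESeq2 Wald test passed 51 to 715 genes at an adjusted p of 0.05. Without IVG-NT replicate 3, its rRNA-poor library, Zp3 was called lower than in IVV (log2 fold change −2.26, edgeR adjusted p = 0.649). Among rRNA-rich libraries alone the IVG mean of Zp3 was 764.5 and the single IVV value 718.1 normalised CPM, and among rRNA-poor libraries the single IVG value was 2963 against an IVV mean of 3429.

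Whether NT-4 changed the zona genes was asked at day 10 and at day 6. At day 10 the log2 fold changes of IVG-NT against IVG were −0.04 for Zp1, −0.07 for Zp2, −0.08 for Zp3 and 0.43 for Zp4-ps, with SE of 0.52, 0.59, 0.89 and 1.56. No member was called, against 1.24% of all genes, and the smallest unadjusted p by edgeR was 0.786. With DESeq2 size factors the Zp3 value was 0.0049, and the other directions were kept. With the replicate number as a block the values were −0.04, −0.17, −0.24 and 0.41, and the share of all genes called was 0.605%. Within the rRNA-rich libraries Zp3 was 445.7 and 611.9 normalised CPM with NT-4 and 733.1 and 796 without, and in the rRNA-poor pair 3205 with and 2963 without. Zp3 thus lay lower with NT-4 in one kind of library and higher in the other.

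At day 6 the log2 fold changes of IVG-NT against IVG were −0.38 for Zp1 (SE 0.52), −0.60 for Zp2 (SE 0.60), −0.18 for Zp3 (SE 0.89) and −0.12 for Zp4-ps (SE 1.56). No member was called, against 11.6% of all genes, and each edgeR adjusted p was 0.744 or more. With DESeq2 size factors, which moved the median of all genes by 0.27, the signs of Zp1 (0.03), Zp3 (0.11) and Zp4-ps (0.14) turned and Zp2 stood at −0.06. For Zp2 the levels with NT-4 were lower in both kinds of library, with means of 2681 against 4096 normalised CPM in the rRNA-rich and single values of 937.2 against 1364 in the rRNA-poor libraries. In the fit adjusted for kind the Zp2 value was −0.59 (SE 0.28, edgeR unadjusted p = 0.0539, adjusted p = 0.315). For Zp1 the rRNA-rich libraries gave 539.9 with NT-4 against 1014 without, and the rRNA-poor libraries 1076 against 785.3. In a fit of the rRNA-rich libraries alone Zp1 was −0.99 (edgeR unadjusted p = 0.00489, adjusted p = 0.122) and Zp2 −0.69 (edgeR unadjusted p = 0.0404, adjusted p = 0.259), both short of the fold limit. The rRNA-rich libraries with NT-4 are the 2 shallow ones, and depth cannot be told apart from NT-4 there. The macrophage markers summed to 53.13 normalised CPM in the first of these, against 0 to 1.486 in IVG day 6, and the part of such cells was not tested. The effect of NT-4 at day 10 minus its effect at day 6 was 0.34 for Zp1, 0.53 for Zp2, 0.10 for Zp3 and 0.55 for Zp4-ps in log2 units. No member was called for this difference, against 6.37% of all genes, and the smallest unadjusted p by edgeR was 0.539.

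In the edgeR fit of group means with TMM scaling, the change from day 6 to day 10 without NT-4 was the comparison between groups in which a member was called. With DESeq2 size factors or its Wald test a member was also called between days with NT-4. Zp2 averaged 3185 ± 1583 normalised CPM in IVG day 6 and 1299 ± 344.4 in IVG (SD, n = 3 each), a log2 fold change of −1.29 (SE 0.60, edgeR unadjusted p = 0.0473). Its adjusted p was 1, and 2.9% of all genes were called in this comparison. The groups overlapped, since the rRNA-poor library of day 6 (1364) was below IVG replicate 1 (1606) and level with IVG replicate 2 (1364). With the replicate number as a block the value was −1.20 (edgeR unadjusted p = 0.0314), with 1.71% of all genes called. The number goes with the kind of library in these groups, so the block cannot be told apart from the kind. In the fit adjusted for kind it was −1.16 (SE 0.29, edgeR unadjusted p = 0.00111, adjusted p = 0.965), against 4.86% of all genes called in that fit. In the rRNA-rich libraries the day 10 mean was 2.76-fold below that of day 6 (1485 against 4096), without overlap, and in the rRNA-poor pair 926.6 stood against 1364. The call was lost when any 1 of the IVG libraries or of IVG day 6 replicates 1 and 2 was left out, with log2 fold changes of −1.04 to −1.46, and under the DESeq2 Wald test (unadjusted p = 0.0554).

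With NT-4 the same change of Zp2 was −0.77 (SE 0.60, edgeR unadjusted p = 0.218), from 2100 ± 1134 to 1235 ± 614.6 normalised CPM (SD, n = 3 each). No member was called in this comparison, against 12.7% of all genes. Under the DESeq2 Wald test Zp2 was called (log2 fold change −1.36, unadjusted p = 0.0481, adjusted p = 0.291). In the fit adjusted for kind Zp2 was −0.73 (SE 0.28, edgeR unadjusted p = 0.0216, adjusted p = 0.249), again not called, against 16.9% of all genes called in that fit. Zp2 was lower at day 10 in both kinds of library, with means of 1529 against 2681 and single values of 646.8 against 937.2. Without both shallow libraries, which leaves 1 day 6 library that is rRNA-poor, the value without the covariate was 0.29. With the kind as a covariate it stayed negative in the same libraries. The lone library is then assumed to vary like those of the other groups.

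Zp3 was likewise lower at day 10 than at day 6 within each kind of library. Without NT-4 the rRNA-rich libraries held 733.1 and 796 against 1168 and 1229 normalised CPM, and the rRNA-poor ones 2963 against 4317. With NT-4 they held 611.9 and 445.7 against 1084 and 950.6, and 3205 against 3895. Group means alone did not separate the days, with log2 fold changes of −0.58 (SE 0.89) and −0.48 (SE 0.89). In the fit adjusted for kind the values were −0.62 (SE 0.23, edgeR unadjusted p = 0.0181, adjusted p = 0.965) and −0.71 (SE 0.23, edgeR unadjusted p = 0.00841, adjusted p = 0.234), both short of the fold limit. Zp1 stood at −0.08 and 0.27 in the 2 comparisons by group means, and the second was −0.21 with DESeq2 size factors. In a fit of the rRNA-rich libraries alone Zp1 was called higher at day 10 with NT-4 (log2 fold change 1.01, edgeR unadjusted p = 0.00445), where the day 6 libraries are the shallow ones, and the rRNA-poor libraries held 516.6 at day 10 against 1076 at day 6. The ratio of Zp1 to Zp2 was 2.10-fold higher at day 10 than at day 6 without NT-4 (exact permutation p = 0.1, the smallest that 3 against 3 allows, and 0.525 adjusted). With NT-4 it was 2.02-fold higher (exact permutation p = 0.4, adjusted p = 0.933). The rRNA-poor libraries with NT-4 went the other way, with 1.10 at day 10 against 1.58 at day 6. The granulosa markers summed to 54.24 to 146.4 normalised CPM in IVG day 6 and 99.42 to 306.3 in IVG. In that comparison 1 of 11 was called higher at day 10, against 2.9% of all genes called. With NT-4 the sums were 48.56 to 185.7 at day 6 and 124.6 to 247.6 at day 10. There 5 of 11 were called higher at day 10, against 12.7% of all genes called. Those 5 averaged 0 to 2.445 normalised CPM in IVG-NT day 6, the group with the 2 shallow libraries. The part of granulosa RNA in the zona values was not tested.

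**Figure D4:**
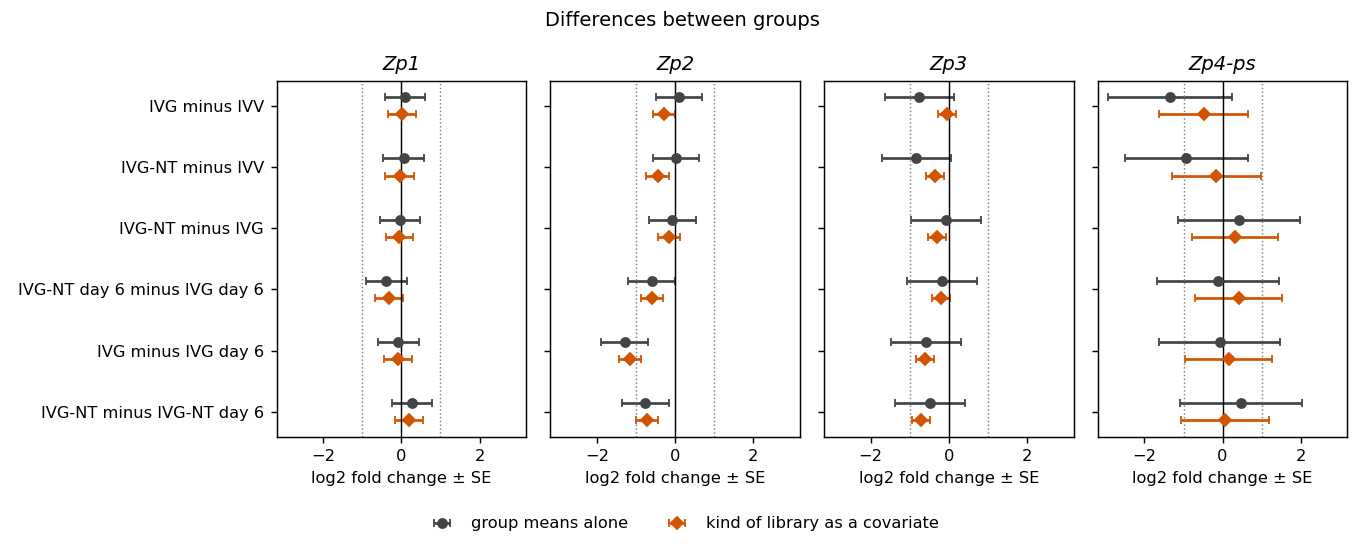
Log2 fold change with SE of each zona gene in the 6 comparisons between groups, with circles for the fit of group means and diamonds for the fit in the fit adjusted for kind, and dotted lines at −1 and 1. Zp2 in IVG against IVG day 6 (−1.29 and −1.16) is the only value past a dotted line that was also called, and the error bars of Zp3 shrink from 0.89 to 0.23 when adjusted for kind.

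Genes around the zona pathway were described from 5 lists. No gene of the 39 tested was called in IVG or IVG-NT against IVV, in IVG-NT against IVG or in IVG against IVG day 6, and neither edgeR nor DESeq2 gave any of them an unadjusted p under 0.05 there. In IVG-NT day 6 against IVG day 6, where 11.6% of all genes were called, 6 of the 39 were called, and in IVG-NT against IVG-NT day 6, where 12.7% were, 4 of the 39 were called, none with an adjusted p under 0.05 by edgeR. The 4 were Tbpl2, Rpn2, B4galt1 and Zpld1, of which Rpn2 and B4galt1 are named here after their values were seen. Tbpl2, an oocyte core promoter factor, had 4.156, 194.7 and 19.89 normalised CPM in IVG-NT day 6 replicates 1, 2 and 3 and 6.734 to 10.47 in IVG-NT (edgeR unadjusted p = 0.0147, adjusted p = 0.357). B4galt1, a galactosyltransferase, had 8.854, 173 and 0.2445 against 1.59 to 4.475. For both genes the higher mean of day 6 came from replicate 2, a shallow library, and the groups overlapped. Rpn2, a subunit of the enzyme that attaches N-glycans, had 191.9, 115.6 and 41.96 against 20.27 to 32.86, with the highest values in the 2 shallow libraries. Zpld1 had a count of 0 in all 3 libraries of IVG-NT day 6 and 2.503 to 6.079 normalised CPM in IVG-NT.

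Between kinds of library 35.1% of all genes were called, and the counts of each list are given beside that share. Of 8 zona transcription regulators 1 was called higher and 2 lower in the rRNA-rich libraries and 5 were not called, with a median log2 fold change of 0.34 against −0.54 over all genes. Figla, the E-box factor, was lower (19.2 against 78.12 normalised CPM, log2 fold change −2.72, edgeR adjusted p = 0.00128). Nobox, a homeobox factor of growing oocytes, stood at 742.1 against 410.5 (0.69, edgeR adjusted p = 0.0551) and was not called. Lhx8 (0.34) and Tbpl2 (0.34) were not called. The other called regulators, named after their values were seen, were Taf4b, a germ cell cofactor (1.42), and Sohlh1, which averaged under 1 normalised CPM in both kinds of library. Of 6 zona processing genes 1 was called. Furin, a convertase that trims secreted precursors, was higher in the rRNA-rich libraries (259.8 against 24.55 normalised CPM, log2 fold change 3.22, edgeR adjusted p = 5.69e-05). Astl, which encodes the protease that cleaves ZP2 after fertilisation, stood at 267.1 against 351.6 (−0.99, edgeR adjusted p = 0.329), and Fetub and Pcsk6 were not called either.

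Of 7 oocyte surface and secreted genes 1 was called higher and 5 lower, with a median log2 fold change of −1.57. Bmp15, an oocyte growth factor, was higher (4198 against 838.9 normalised CPM, log2 fold change 2.28, edgeR adjusted p = 2.05e-06). Its partner Gdf9 stood at 3002 against 4530 (−0.67, edgeR adjusted p = 0.00706), short of the fold limit. Oosp1 (−1.57) and Oosp3 (−2.18), which encode small secreted oocyte proteins, were lower. The other called genes, named after their values were seen, were Oosp2 (−2.71), Cd9, a membrane protein needed for sperm fusion (−1.88), and Izumo1r, the sperm receptor of the oocyte membrane (−1.34). Of 11 glycosylation genes 1 was called higher and 2 lower, with a median of 0.40. Dad1, a small subunit of the enzyme that attaches N-glycans, was lower (53.06 against 668.4, log2 fold change −3.83, edgeR adjusted p = 0.000148), while Stt3b (0.59), a catalytic subunit of it, was not called. Stt3a (2.28), the alternative catalytic subunit, and Mgat2 (−2.40) were the other called genes, named after their values were seen. Of 7 other genes with a zona pellucida domain that could be tested, from 11 listed, 1 was called higher (Tgfbr3, 1.84) and 2 lower (Dmbt1, −2.07, and Gp2, named after its values were seen). The mean of Gp2 was 1.37 normalised CPM in the rRNA-rich and 0.687 in the rRNA-poor libraries, against its fitted direction. In this list Umodl1, the one of highest level, stood at 2353 against 1451 (0.45, edgeR adjusted p = 0.315).

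The genes whose log2 CPM over the 15 libraries was most like that of each member were found by Pearson's r, given as a description. For Zp3 they were Arl2 (r = 0.97), Birc5 (0.97) and Pttg1 (0.96). For Zp2 they were Znrf2 (0.94), mt-Tl1 (0.93) and Hsp90b1 (0.92), and for Zp1 Med18 (0.92), Rhoa (0.91) and Rab1a (0.91). For Zp4-ps they were Trappc2l, Mrpl54 and Myl12b (0.98 to 0.99). All these libraries share the split by kind. After the mean of each kind was taken out, the gene second most like Zp3 of 21008 was Zp2 (r = 0.85, Spearman's rho 0.78, n = 15), the first being Vmn2r5 (0.88). Before that step r between Zp2 and Zp3 was −0.48. The 3 genes most like Zp2 after the step were Gm12346, Znrf2 and mt-Tl1 (r = 0.87 each), without Zp3. Differences between groups, such as that between days, were left in. For Zp1, r was 0.21 with Zp2 and −0.35 with Zp3 before the step, and −0.03 and −0.16 after it.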

How the data were processed

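Each library was made from 6 GV oocytes amplified with SMART-Seq2 and sequenced in pairs on an Illumina machine. Reads of low quality were discarded by the authors, and HISAT2 placed the others on mm10. The deposited values are raw whole-number counts, 1 file a library, by Ensembl gene. A table of the whole series with the same values was not used. How the counts were made strand by strand is not given in the sources used here. Symbols came from GENCODE vM21 and matched 99.5% of identifiers. Groups and replicate numbers were taken from the titles, and the study's methods say that the 3 samples of a group came from repeated experiments. The labels do not say which animals or cultures each number marks.

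Genes were kept by filterByExpr with a minimum count of 10, scaled by TMM and tested with edgeR 4.0.16 (glmQLFit and glmQLFTest, R 4.3.3) on group means over 15 libraries. P-values were adjusted by Benjamini-Hochberg over all genes tested. A call was a log2 fold change beyond 1 with an unadjusted p under 0.05, the threshold of the study. The kind of library was tested with the group as a covariate. Log2 CPM for correlations used a prior count of 2. Log2 differences between kinds within a group were taken after adding 2 normalised CPM. Ratios were compared by two-sided exact permutation tests. DESeq2 1.42.0, another filter, the groups compared alone, a replicate block, the rRNA gene left out, the kind as a covariate, the rRNA-rich libraries alone and each library left out were alternatives. The fits were also run on simulated counts with a single fixed dispersion. The simulated comparison between groups held no difference between kinds of library, so it does not test the group fits under that split.

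Deviations from the group mean were correlated between libraries with the same replicate number. The correlations were 0.37, 0.413 and 0.732 for IVG-NT with IVG, and 0.23, 0.147 and 0.538 for IVG with IVG day 6. Replicates 1 and 2 are rRNA-rich and replicate 3 is rRNA-poor in these groups. The kind of library was not taken out, so these correlations cannot show that a number marks a shared experiment. The named genes are the 4 members, up to 4 genes of highest mean level per length from each list, and the 3 genes most like each member. The members and lists were chosen with earlier results of these data known. The limit given for the count of 0 covers counting error only. SDs are taken over libraries, and the SEs of the fits include the fitted spread between libraries. PCR duplicates are not resolved.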

Additional observations from a re-analysis of the deposited data

Results flagged for a closer look

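Zp1 differed between rRNA-rich and rRNA-poor libraries in opposite directions between groups. In IVG-NT day 6 both rRNA-rich libraries lay below the rRNA-poor one, with a mean log2 difference of −1.01 without a prior count (−1.002 with one), and in each of the other 4 groups the rRNA-rich libraries lay above, by 0.37 to 1.004. This difference between groups was not tested, and 1 or 2 libraries stand on each side. The 2 libraries concerned hold 3407 and 2667 counts of Zp1 and are the shallowest of the series.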

How the results depend on the processing

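The count of zona genes called moved in few comparisons. In IVG against IVG day 6 it went from 1 to 0 under the DESeq2 Wald test and with only the groups compared. In IVG-NT against IVG-NT day 6 it went from 0 to 1 with DESeq2 size factors, the Wald test (Zp2 both times) and the rRNA-rich libraries alone (Zp1), and the NT-4 effect between days went from 0 to 1 in the last setting. Leaving out 1 library gave 0 to 1 in IVG against IVG day 6 and in IVG-NT against IVV, and 2 to 3 for the kind of library.

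No group difference of a member that turned sign had been called. DESeq2 size factors and the Wald test gave, for IVG against IVV, −0.12 (Zp1) and −0.11 (Zp2), for IVG-NT against IVV −0.19 and −0.21, for IVG-NT against IVG 0.0049 (Zp3), for IVG-NT against IVG-NT day 6 −0.21 with size factors and −0.22 with the Wald test (Zp1), and for NT-4 at day 6 0.11 (Zp3), 0.028 (Zp1) and 0.14 (Zp4-ps). With no filter Zp2 was −0.013 in IVG-NT against IVV. In the fit adjusted for kind Zp2 was −0.28 in IVG and −0.44 in IVG-NT against IVV, Zp1 −0.045 in IVG-NT against IVV, and Zp4-ps 0.15 in IVG against IVG day 6 and 0.41 for NT-4 at day 6. In the rRNA-rich libraries alone Zp3 was 0.11 and Zp2 −0.055 in IVG against IVV, Zp2 −0.0029 and Zp4-ps 0.014 in IVG-NT against IVV, Zp1 0.056 and Zp2 0.052 in IVG-NT against IVG, and Zp4-ps 0.31, −0.12 and 0.68 in IVG and IVG-NT against their day 6 groups and for NT-4 at day 6. Without both shallow libraries, chosen after seeing the data, Zp2 was 0.29 in IVG-NT against IVG-NT day 6, and negative when the kind was also a covariate. The cause of these turns was not tested.

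The replicate block changed no count of zona genes called. With it Zp1 was −0.075 and Zp2 −0.45 in IVG against IVV, Zp1 −0.12 and Zp2 −0.62 in IVG-NT against IVV, and Zp4-ps 0.15 in IVG against IVG day 6 and 0.078 for NT-4 at day 6. IVV shares 2 numbers with the other groups, and for both the kind of library is the opposite one. Correlations by number were −0.278 to −0.522 there. The day 6 groups, and IVG-NT with its day 6 group, had pairs under 0.1. Since the number goes with the kind of library, pairing by number was not shown in any comparison. The labels do not say whether a number marks a shared experiment.

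Leaving out 1 library turned these signs. Zp1 ranged from −0.21 to 0.10 in IVG against IVG day 6, −0.065 to 0.27 in IVG against IVV, −0.22 to 0.22 in IVG-NT against IVG, −0.041 to 0.69 in IVG-NT against IVG-NT day 6 and −0.16 to 0.32 in IVG-NT against IVV. Zp2 ranged from −0.10 to 0.30 in IVG against IVV, −0.51 to 0.23 in IVG-NT against IVG and −0.44 to 0.34 in IVG-NT against IVV. Zp3 ranged from −1.55 to 0.33 in IVG against IVG day 6, −1.51 to 0.90 in IVG-NT against IVG, −1.90 to 0.49 in IVG-NT against IVG-NT day 6 and −1.15 to 0.72 for NT-4 at day 6. Zp4-ps ranged from −1.66 to 1.92, −1.34 to 2.01, −1.29 to 1.58 and −1.23 to 1.88 in the same 4 comparisons. Between kinds of library no member turned sign, with Zp3 at −2.22 to −2.01, Zp4-ps at −3.59 to −2.81, Zp2 at 0.98 to 1.23 and Zp1 at 0.06 to 0.59. With 3 libraries a group of unequal kinds, SEs of 0.52 to 1.59 limit what a comparison of group means can show.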
